A study of Mus musculus with 8 samples.

Results

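The genes described here encode the actin cytoskeleton and its regulators, the machinery with which T cells crawl, probe and form contacts. A list of 56 genes was taken by gene symbol, and 55 of them had a row of their own among the 22609 gene rows of the count tables. All 55 passed the filter on low counts and belong to the 10073 genes tested. The listed symbol Myl12a had no row, and the row 2900073G15Rik, which RefSeq gives as a synonym of Myl12a, is given separately and not counted. The cells were CD8 T cells sorted from livers of male C57BL/6J mice, 6 weeks old, that had received αCD137, an agonist antibody against a costimulatory receptor of T cells, on days 0, 3 and 6, with livers taken on day 8. The sort took live cells with CD45, TCRβ, CD8α and KLRG1 and without MHCII, NK1.1, CD4 and CD127, and parted them by surface CD11c. Both subsets came from treated mice and no untreated group is among the 8 libraries, 4 of CD11c+ and 4 of CD11c- cells. Whether libraries came from separate mice is not given in the labels, so p-values reflect no more than how these samples vary, and part of that variation may be technical.

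Actin exists as single subunits and as filaments that grow at one end and are taken apart at the other. The Arp2/3 complex, switched on by WASP and WAVE family proteins, makes branched networks that push the leading edge of a crawling T cell forward, and formins build unbranched filaments. Cofilin, profilin, thymosins and cyclase-associated protein control the pool of free subunits, myosin II contracts the network, and small GTPases tell these proteins where and when to act. In T cells the same machinery shapes migration through tissue and the synapse with a target cell.

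The libraries held 5090345 to 7093163 gene reads and 10482 to 12581 detected genes. Cd3e was at 976 CPM (reads per 1000000 gene reads after scaling) ± 59.97 (SD, n = 4) in CD11c+ and 955 ± 60.6 in CD11c- libraries, Cd8a at 1173 ± 70.6 and 1121 ± 86.0, and Klrg1 at 533 ± 61.4 and 454 ± 62.3, while Il7r, which encodes CD127, was at 8.27 ± 6.83 and 3.83 ± 2.38. Itgax, which encodes CD11c, was at 243 CPM ± 76.4 against 10.1 ± 5.64. Over all tested genes 5 passed an adjusted p of 0.05 by edgeR's quasi-likelihood test, 3 higher and 2 lower in CD11c+ cells, and none of the 5 is an actin regulator. Leaving out CD11c+ replicate 2 gave 5 such genes, and leaving out any other single library gave 1 to 3.

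Actin regulators took up a similar share of the transcriptome in both subsets. Their reads made up 10.48% ± 0.320 of gene reads in CD11c+ libraries and 10.3% ± 0.357 in CD11c- libraries, with ranges of 10.1% to 10.8% and 10.02% to 10.8% that overlapped. Actb, the gene of beta-actin, gave 48.9% of the summed CPM of the list, and the 8 members with the most reads gave 79.7%. Of the 55 members, 14 had a mean of at least 1000 CPM over the 8 libraries, 29 lay between 100 and 1000, and 12 lay under 100. A score over the members, the mean z-score of log2(CPM + 1), ran from -0.22 to 0.28 in CD11c+ and from -0.14 to 0.30 in CD11c- libraries.

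**Figure D1:**
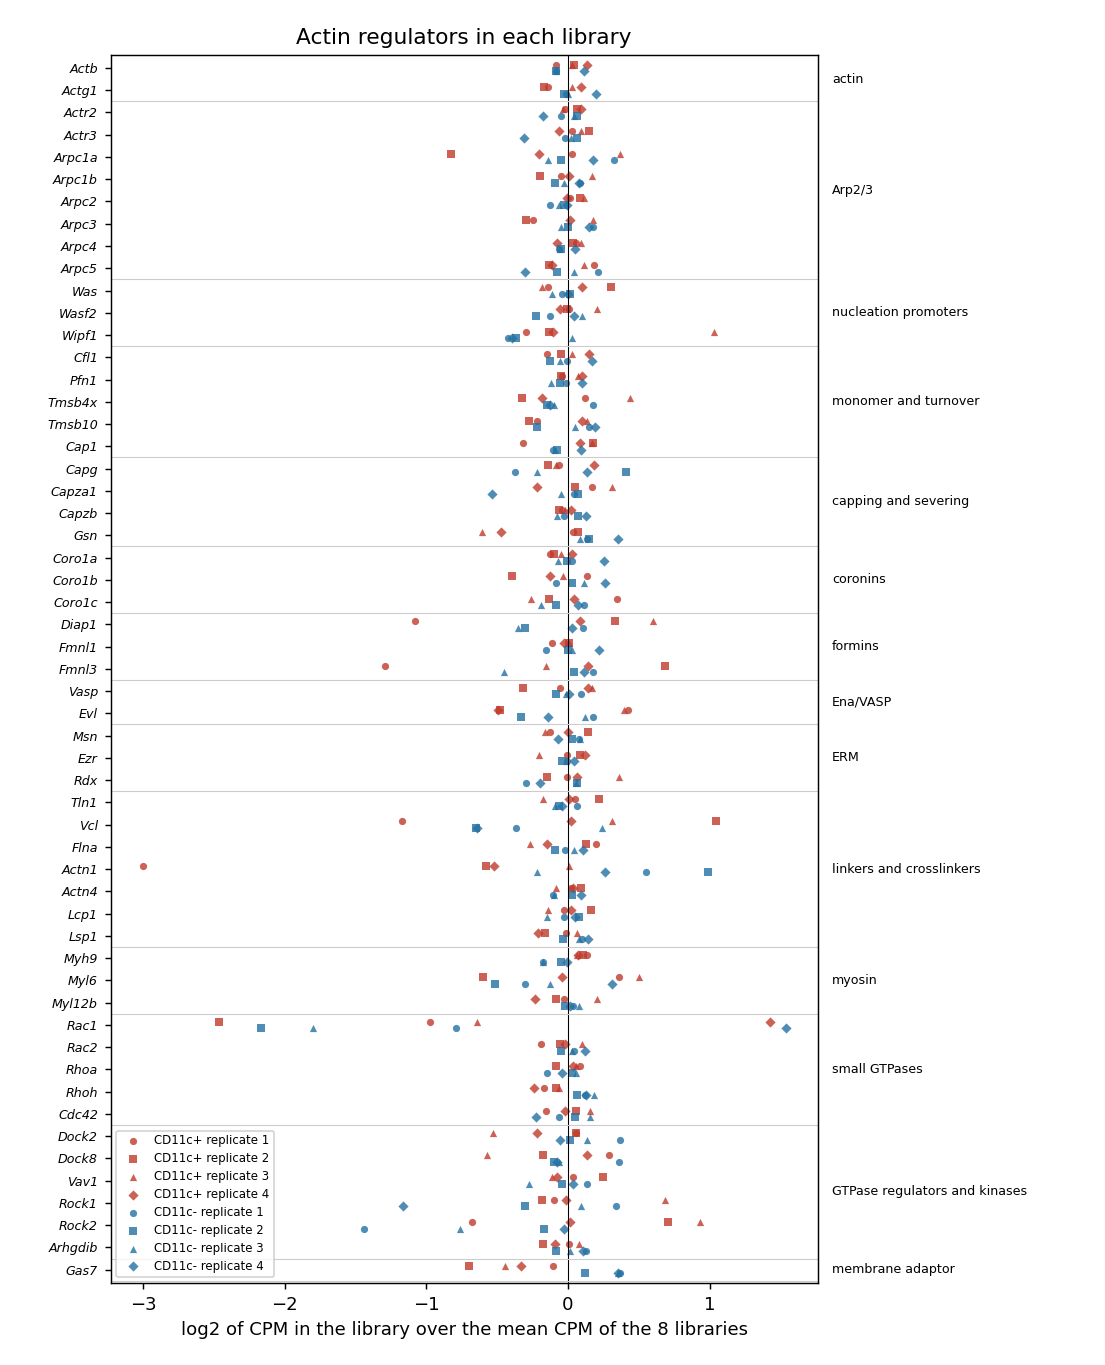
Each row is an actin regulator, each point a library, and the horizontal axis gives the log2 of its CPM over the mean CPM of the 8 libraries (red CD11c+, blue CD11c-, symbols for replicate number). Most rows are narrow, Rac1 spreads from 32.5 to 518.5 CPM with replicate 4 of each subset on the right, and Gas7 shows the CD11c- libraries to the right of the CD11c+ ones.

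No actin regulator passed the test across all genes, and most differed little between the subsets. Of 55 tested, 0 had an adjusted p under 0.05 by edgeR, where the background over all tested genes was 0.0496% (0.0298% higher and 0.0199% lower), and DESeq2 (background 0.295%) and limma voom with quality weights (background 0.189%) each called 1, Gas7. At an unadjusted p under 0.05 there were 0 higher members (background 2.43%) and 2 lower ones, Gas7 and Rhoh (background 2.26%). The share of 3.64% in this fit is near the 4.7% of all tested genes, and the share varied between fits. With other tools the members under that p were 4 with DESeq2 (7.27%, background 4.79%) and 6 with limma voom (10.9%, background 5.32%). With edgeR's legacy=FALSE setting they were 3 (5.45%, background 5.81%). The higher count was 4 without CD11c+ replicate 1 (7.27%, background of that fit 2.48%) and 1 without CD11c- replicate 4 (1.82%, background 1.81%). The lower count was 4 (7.27%) without CD11c+ replicate 2 (background 2.49%) or CD11c+ replicate 3 (background 2.89%). It was 1 (1.82%) without CD11c+ replicate 4 (background 2.89%) or CD11c- replicate 3 (background 1.66%).

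The median log2 fold change, CD11c+ over CD11c-, was 0.02 for the members and 0.01 for all tested genes, with 31 members above 0 and 24 below it (51.7% of all tested genes were above 0). The median size of the log2 fold change without its sign was 0.08 for members and 0.19 for all tested genes. For 41 of the 55 (74.5%) the 95% interval of the difference lay within 1.5-fold in either direction, against 29.3% of all tested genes. These shares were not compared with those of other genes of like level, and intervals are narrower for genes with more reads. The groups did not overlap for 4 members (7.27%, background 3.44%), Myh9 higher (background 1.6%) and Gas7, Rhoh and Gsn lower (background 1.85%) in CD11c+ cells.

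**Figure D2:**
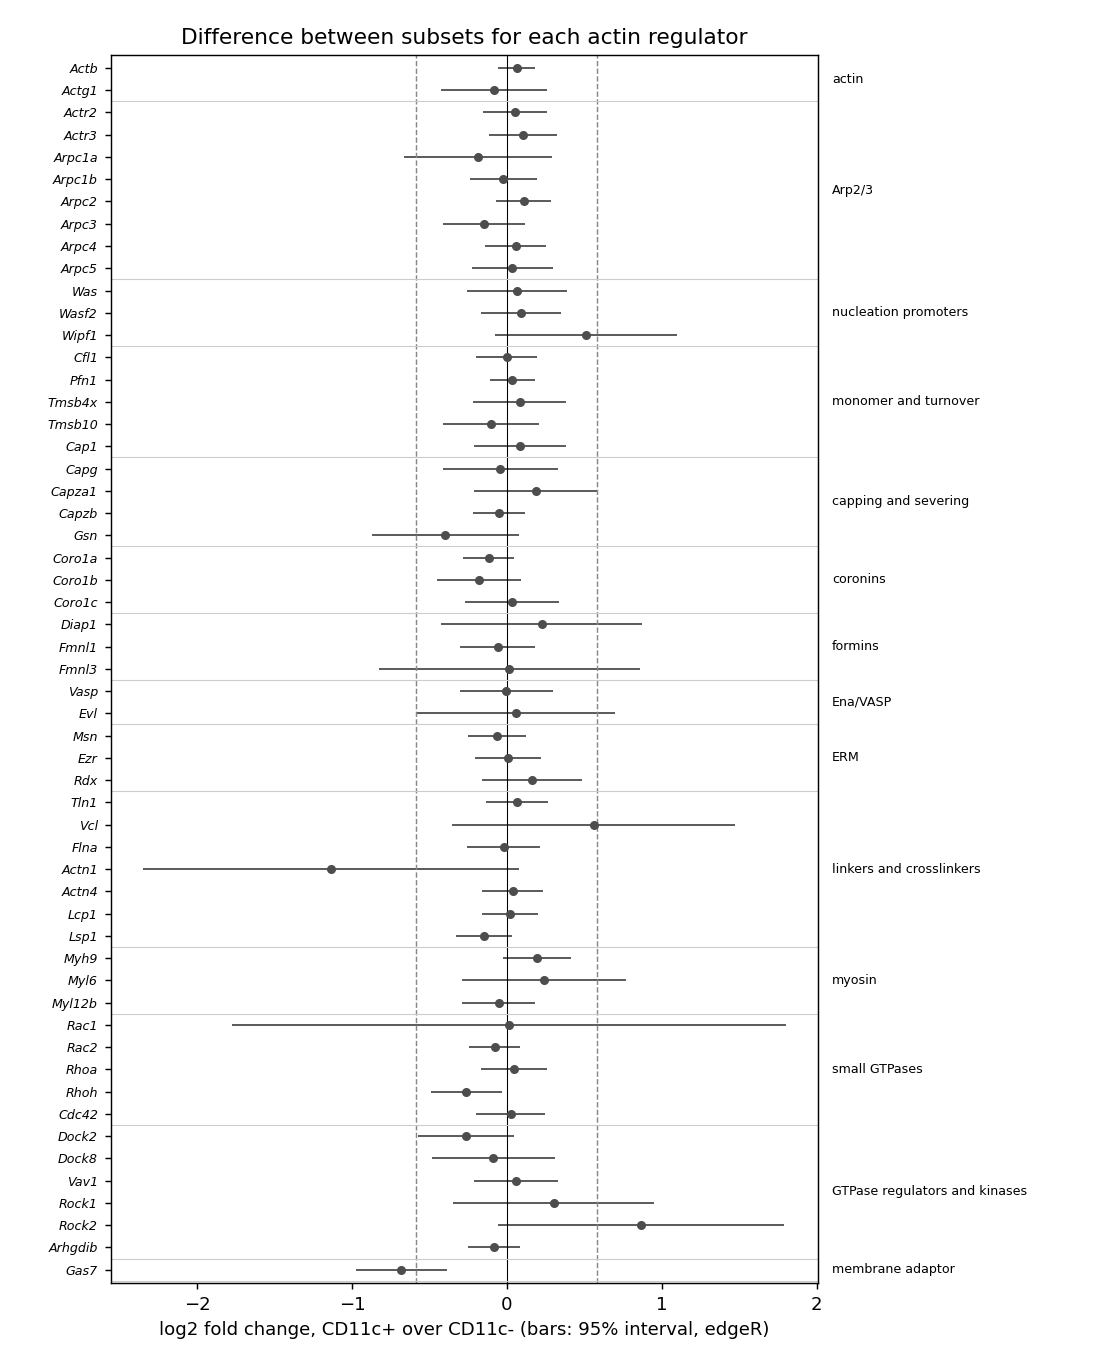
Points are log2 fold changes of CD11c+ over CD11c- cells for the 55 actin regulators, bars are 95% intervals from the edgeR fit, and dashed lines mark 1.5-fold. The intervals of 41 members stay between the dashed lines, those of Gas7 and Rhoh lie below 0, and the widest are those of Rac1 and Actn1.

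The actins themselves differed little between subsets. Actb was at 47956, 52298, 51812 and 55784 CPM in CD11c+ replicates 1 to 4 and at 47852, 48060, 48054 and 55025 CPM in CD11c- replicates 1 to 4. Replicate 4 was the highest library in each subset and the groups overlapped. At each replicate number the CD11c+ library lay above the CD11c- library. The log2 fold change of Actb was 0.06 (SE 0.06, adjusted p = 0.991 by edgeR), with a 95% interval from -0.06 to 0.18. With a block for replicate number it was also 0.06 (unadjusted p = 0.04, adjusted p = 0.805 by edgeR). In that fit 6.07% of all tested genes had an unadjusted p under 0.05. Actg1, which encodes gamma-actin, was at 67.2 CPM ± 5.90 and 71.2 ± 5.44 (log2 fold change -0.08, interval -0.43 to 0.26). Per kilobase of exon Actb stood at 18983 CPM and Actg1 at 26.0.

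The count tables set alignments at several places apart from gene counts, so members with near copies elsewhere have uncertain absolute levels. To show which, every 50-base stretch of each member's coding transcripts in GENCODE M21 (build GRCm38) was searched, with up to 2 mismatches, in the transcripts of genes at other places. Such a match was found for 47.5% of the stretches of Actb and 46.2% of those of Actg1, where 45.0% matched without a mismatch against 12.2% in Actb. Capza1 (86.3%), which encodes a subunit of the capping protein that blocks filament ends, and Actr3 (76.9%), which encodes Arp3, shared the most. In all, 16 of 55 members shared over 10% of their stretches and 17 shared none. The level of Actg1 and the other shared genes is therefore uncertain, and the comparison between subsets holds only for the reads that were counted.

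**Figure D3:**
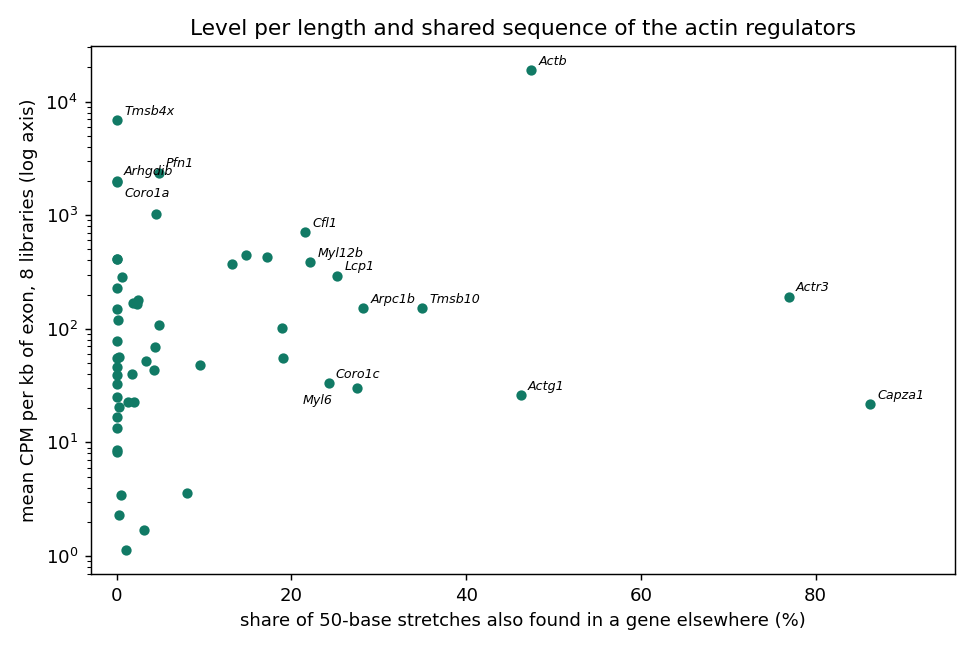
Each point is an actin regulator, with the share of its 50-base stretches that also occur in a gene elsewhere (%) on the horizontal axis and its mean CPM per kilobase of exon over the 8 libraries on a log axis. Actb, at 18983 CPM per kilobase, lies at the top with 47.5% shared, Actg1 lies far below it at 46.2%, and Capza1 and Actr3 lie at the right.

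Many actin genes are controlled by serum response factor, which binds a short DNA element called the CArG box and takes its cue from the pool of free actin through the MRTF coactivators. This box was taken as CC, then 6 bases each A or T, then GG, a pattern that is its own reverse complement. It was searched for in the 250 bases before each RefSeq transcription start (build GRCm38.p6). It was present for 4 of the 47 members matched to a promoter in that table (8.51%) and for 1.62% of all 27025 genes there. Actb, Coro1b, Diap1, Lsp1, Rac1, Rac2, Rock1 and Gas7 were not matched. The count is a description of letters and not of binding. The windows of Actg1 and Vcl, which encodes the adhesion linker vinculin, are shown because they hold the box outside annotated exons, with the box in capitals, 5′ to 3′ on the strand of the gene.
Actg1: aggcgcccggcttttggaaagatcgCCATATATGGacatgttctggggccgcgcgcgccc
Vcl: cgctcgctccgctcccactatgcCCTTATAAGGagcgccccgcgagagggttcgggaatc
The Actg1 window is chr11:120348551-120348610 on the minus strand, with the box at 90 to 81 bases before the start, and the Vcl window is chr14:20929148-20929207 on the plus strand, with the box at 227 to 218 bases before the start. In Myl6 the box CCTTATATGG lay 50 to 41 bases and in Arpc4 the box CCTAATTTGG 250 to 241 bases before the start. None of these 4 genes passed the test, with log2 fold changes of -0.08 for Actg1, 0.56 for Vcl, 0.24 for Myl6 and 0.06 for Arpc4. The estimate for Vcl ranged from 0.148 without CD11c+ replicate 2 to 0.831 without CD11c+ replicate 1, and that for Myl6 from 0.077 without CD11c+ replicate 3 to 0.406 without CD11c- replicate 4. Those of Actg1 (-0.14 to -0.007) and Arpc4 (0.016 to 0.08) stayed small under all 17 alternatives.

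The Arp2/3 complex was level. Its 8 genes summed to 5074, 4889, 5439 and 4913 CPM in CD11c+ replicates 1 to 4 and to 5163, 4954, 4976 and 4757 CPM in CD11c- replicates 1 to 4, means of 5079 ± 254 and 4962 ± 166 that differed by less than the spread. The highest library was CD11c+ replicate 3, and without it the log2 ratio of the sums moved from 0.03 to -0.001. Among these 8 subunit genes 5 estimates lay above 0 and 3 below, from -0.19 for Arpc1a to 0.11 for Arpc2, none past the test (adjusted p from 0.991 to 0.999 by edgeR). Arpc2, a core subunit that holds the complex together, was at 896 CPM ± 35.7 and 831 ± 30.4 (log2 fold change 0.11, SE 0.08). Among the members, Arpc2 had the smallest spread relative to its mean between libraries of the same subset, pooled over both subsets. Across all 8 libraries the ratio of highest to lowest was smaller for other members, Arpc4 among them. The exchangeable subunits Arpc1a and Arpc1b, of which a complex holds either, were at 116 ± 37.5 and 132 ± 19.7 CPM and at 773 ± 81.8 and 785 ± 46.4 CPM. Per kilobase of exon the level of Arpc1b, the form found mostly in blood cells, was 152 CPM and that of Arpc1a 48.2, with 28.2% and 9.51% of their stretches shared. Intervals lay within 1.5-fold for 7 of the 8, all but Arpc1a.

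The activators of Arp2/3 did not pass the test either. Was, which encodes WASP, the protein missing in Wiskott-Aldrich syndrome, was at 105 CPM ± 16.7 and 101 ± 3.90, and Wasf2, which encodes the WAVE2 subunit of the WAVE complex, at 254 ± 20.7 and 239 ± 24.8. Wipf1 encodes WIP, the partner that protects WASP from degradation. It was at 79.8, 89.4, 200.4 and 90.9 CPM in CD11c+ replicates 1 to 4 and at 73.0, 76.1, 99.7 and 74.5 CPM in CD11c- replicates 1 to 4. The value of CD11c+ replicate 3 stood far above the rest, and replicate 3 was the highest of each subset. The log2 fold change of Wipf1 was 0.51 (SE 0.27, adjusted p = 0.991 by edgeR) and 0.10 without CD11c+ replicate 3.

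Genes for handling free actin and turning filaments over were among those with the most reads. Tmsb4x, which encodes thymosin beta-4, the main protein that holds actin subunits in reserve, was at 10219, 7502, 12738 and 8294 CPM in CD11c+ replicates 1 to 4 and at 10643, 8502, 8793 and 8634 CPM in CD11c- replicates 1 to 4. The highest value came from CD11c+ replicate 3, the lowest from CD11c+ replicate 2, and the groups overlapped. Its log2 fold change was 0.08 (SE 0.14) and -0.08 without CD11c+ replicate 3. Pfn1, which encodes profilin, the protein that feeds subunits to growing ends, was at 5516, 5489, 5964 and 6081 CPM in CD11c+ replicates and at 5646, 5479, 5250 and 6107 CPM in CD11c- replicates. These overlapped over nearly the same range (log2 fold change 0.04, SE 0.07). Cfl1, which encodes cofilin, a severing protein, had means of 2015 ± 176 and 2016 ± 181 CPM, with an interval from -0.20 to 0.20. Tmsb10 (187 ± 27.2 and 201 ± 24.4 CPM) and Cap1 (186 ± 27.9 and 175 ± 11.7 CPM) did not pass the test.

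Of the capping and severing genes, Gsn was lower in CD11c+ cells without passing the test. Gsn encodes gelsolin, which cuts filaments and caps the ends. It was at 43.4, 44.3, 27.8 and 30.4 CPM in CD11c+ replicates 1 to 4 and at 46.4, 46.8, 44.8 and 54.1 CPM in CD11c- replicates 1 to 4. The groups did not overlap, although the highest CD11c+ library lay next to the lowest CD11c- one (log2 fold change -0.40, SE 0.22, adjusted p = 0.991 by edgeR). Capzb, which encodes the beta subunit of capping protein, was at 1332 ± 33.7 and 1379 ± 87.3 CPM, Capza1 at 87.5 ± 13.3 and 76.8 ± 13.7 CPM, and Capg, a capping protein of the gelsolin family, at 174 ± 18.1 and 179 ± 44.2 CPM.

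Coronins bind filaments and help take branches apart. Coro1a, the form that T cells need to survive and recirculate, was at 4987, 5086, 5268 and 5544 CPM in CD11c+ replicates 1 to 4 and at 5541, 5412, 5194 and 6492 CPM in CD11c- replicates 1 to 4. The groups overlapped, with the highest value in CD11c- replicate 4 (log2 fold change -0.12, SE 0.08, adjusted p = 0.991 by edgeR). Coro1b was at 496 ± 73.9 and 561 ± 57.6 CPM and Coro1c at 322 ± 60.8 and 315 ± 30.1 CPM, with log2 fold changes of -0.18 and 0.03.

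The formin group was carried by Fmnl1, and its summed level was similar in both subsets. The 3 formin genes summed to 289, 373, 374.5 and 348 CPM in CD11c+ replicates 1 to 4 and to 326, 339, 337 and 396 CPM in CD11c- replicates 1 to 4, means of 346 ± 39.9 and 350 ± 31.4. The lowest sum was that of CD11c+ replicate 1, and the log2 ratio of -0.01 became 0.06 without CD11c+ replicate 1 and 0.05 without CD11c- replicate 4. Fmnl1, a formin of blood cells, was at 273 ± 10.6 and 284 ± 30.3 CPM. Diap1 (mDia1, Diaph1 in current nomenclature), an effector of RhoA, was at 56.1 ± 23.1 and 48.1 ± 7.67 CPM, and Fmnl3 at 17.3 ± 8.58 and 17.1 ± 3.10. Both were lowest in CD11c+ replicate 1, at 24.6 and 7.04 CPM. Their intervals were wide, from -0.42 to 0.87 for Diap1 and from -0.83 to 0.86 for Fmnl3, so a difference in these genes was not resolved. Of the Ena/VASP proteins, which keep filament ends growing, Vasp was at 144 ± 21.5 and 144 ± 7.15 CPM and Evl at 25.6 ± 8.91 and 24.6 ± 3.97.

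Ezrin, radixin and moesin tie filaments to the cell membrane. Msn, the main form in lymphocytes, was at 1779 ± 173 and 1859 ± 91.4 CPM, Ezr at 594 ± 57.7 and 590 ± 14.1, and Rdx at 159 ± 24.4 and 142 ± 17.8. Their log2 fold changes were -0.06, 0.01 and 0.16, and all 3 intervals lay within 1.5-fold.

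The linkers and crosslinkers fell into abundant members with narrow intervals and scarce ones with wide intervals. Lcp1, which encodes L-plastin, a bundling protein of leukocytes, was at 2732, 3118, 2524 and 2820 CPM in CD11c+ replicates 1 to 4 and at 2721, 2936, 2506 and 2878 CPM in CD11c- replicates 1 to 4, with a log2 fold change of 0.02 (SE 0.08). In each subset replicate 2 was the highest and replicate 3 the lowest. Lsp1, a filament-binding protein of leukocytes, was at 2124, 1912, 2242 and 1851 CPM in CD11c+ replicates and at 2294, 2092, 2263 and 2360 CPM in CD11c- replicates. The groups overlapped (log2 fold change -0.15, SE 0.08, adjusted p = 0.991 by edgeR). Tln1, which encodes talin, the activator of integrins, was at 1511 ± 168 and 1446 ± 70.6 CPM, Flna, the crosslinker filamin A, at 1122 ± 170 and 1138 ± 67.7, and Actn4, the crosslinker alpha-actinin-4, at 667 ± 33.5 and 650 ± 43.1. Vcl was at 22.6 ± 12.7 and 15.3 ± 4.87 CPM. Actn1, which encodes alpha-actinin-1, was at 1.17, 6.29, 9.44 and 6.55 CPM in CD11c+ replicates 1 to 4 and at 13.7, 18.6, 8.09 and 11.3 CPM in CD11c- replicates 1 to 4. The groups overlapped through CD11c+ replicate 3, and the log2 fold change of -1.14 (SE 0.56, adjusted p = 0.991 by edgeR) had an interval from -2.35 to 0.08. Its unadjusted p was 0.064 by edgeR, 0.0255 with the legacy=FALSE setting and 0.0421 with DESeq2, and its lowest adjusted p over the 17 alternatives was 0.814 (edgeR with legacy=FALSE).

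Nonmuscle myosin II pulls on filaments, and its heavy chain gene Myh9 was slightly higher in CD11c+ cells without passing the test. Myh9 was at 319.3, 313.4, 304.5 and 306.0 CPM in CD11c+ replicates 1 to 4 and at 257.3, 281.0, 257.7 and 289.5 CPM in CD11c- replicates 1 to 4. Each CD11c+ library lay above each CD11c- library (log2 fold change 0.20, SE 0.10, adjusted p = 0.991 by edgeR). Of the light chain genes neither passed the test. Myl12b, a regulatory light chain, was at 455 ± 58.2 and 472 ± 13.8 CPM, and Myl6, an essential light chain, at 103 ± 32.3 and 87.7 ± 22.3, with overlapping libraries. The summed level of these 3 myosin genes was 869 CPM ± 82.4 and 831 ± 32.1, with a log2 ratio of 0.06, which was 0.01 once CD11c+ replicate 3 was left out and 0.11 once CD11c+ replicate 4 was. The row 2900073G15Rik, the synonym of the light chain gene Myl12a, was at 723 CPM ± 76.2 and 680 ± 26.6.

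Among the small GTPases, Rhoh was lower in CD11c+ cells and Rac1 varied with the library. Rhoh encodes a blood cell GTPase without enzyme activity that takes part in T cell receptor signalling. It was at 206.5, 218.9, 222.5 and 196.6 CPM in CD11c+ replicates 1 to 4 and at 252.7, 242.0, 263.5 and 253.9 CPM in CD11c- replicates 1 to 4. The groups did not overlap. The log2 fold change of Rhoh was -0.26 (SE 0.11, unadjusted p = 0.0296, adjusted p = 0.991 by edgeR), below 0 under all 17 alternatives (-0.295 to -0.237, adjusted p from 0.569 to 1.00).

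Rac1, which encodes a GTPase that drives WAVE and so the leading edge, was the most variable member. It was at 91.1, 32.5, 114.6 and 479.5 CPM in CD11c+ replicates 1 to 4 and at 103.2, 39.9, 51.4 and 518.5 CPM in CD11c- replicates 1 to 4. In each subset replicate 4 was the highest and replicate 2 the lowest, so that the highest library of the 8 was 15.97 times the lowest. No difference between subsets was resolved (log2 fold change 0.01, SE 0.82), and the estimate moved to -1.18 without CD11c+ replicate 4, to 1.46 without CD11c- replicate 4 and to 1.26 with limma voom. Only 1.78% of the stretches of Rac1 occurred in a gene elsewhere. Its close relative Rac2, the form of blood cells, did not share the pattern, at 2768, 3028, 3376 and 3101 CPM in CD11c+ replicates and 3253, 3053, 3218 and 3424 CPM in CD11c- replicates. Rac2 had a log2 fold change of -0.08 (SE 0.08). Rhoa, the GTPase upstream of contraction, was at 419 ± 20.8 and 406 ± 25.3 CPM and Cdc42, the activator of WASP, at 1322 ± 119 and 1299 ± 146.

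**Figure D4:**
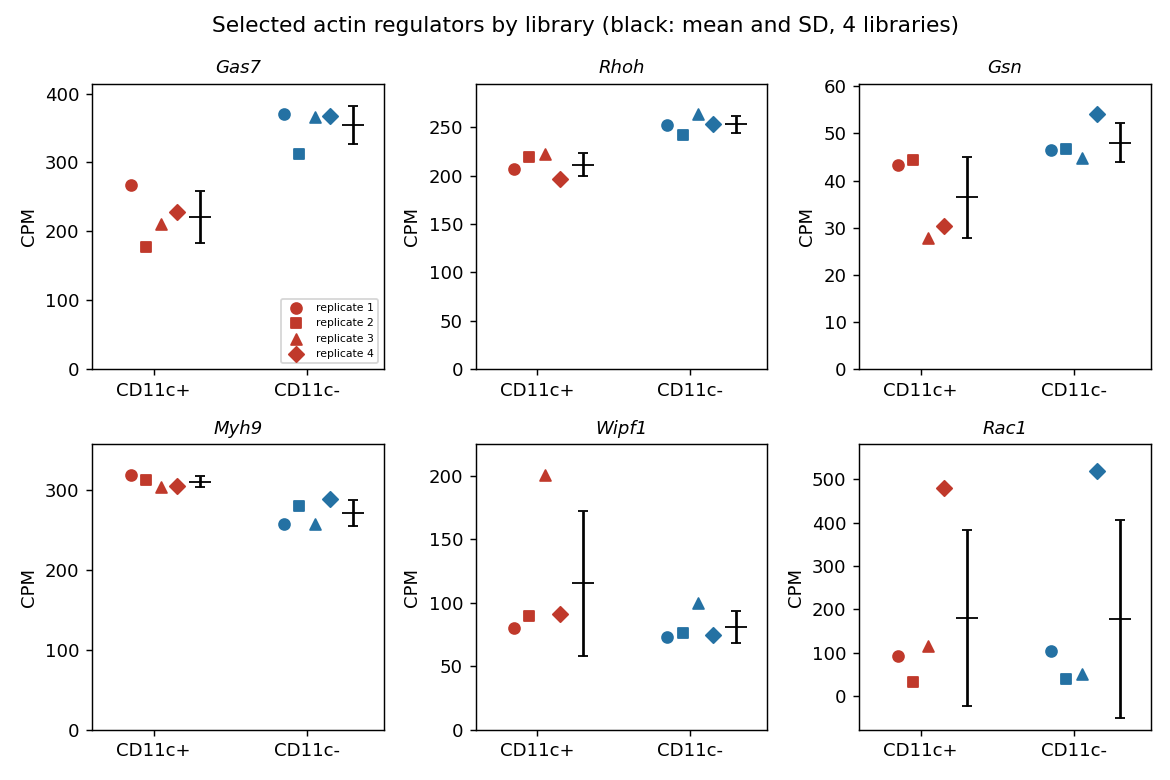
CPM of Gas7, Rhoh, Gsn, Myh9, Wipf1 and Rac1 in each library (red CD11c+, blue CD11c-, symbols for replicate number, black bars the mean and SD of 4 libraries). The subsets do not overlap for the first 4 genes, CD11c+ replicate 3 stands out at 200.4 CPM for Wipf1, and replicate 4 of each subset stands at 479.5 and 518.5 CPM for Rac1.

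Regulators upstream and downstream of the GTPases did not pass the test. Arhgdib, an inhibitor that holds small GTPases in the cytosol of blood cells, was at 3462, 3050, 3626 and 3231 CPM in CD11c+ replicates 1 to 4 and at 3752, 3248, 3468 and 3696 CPM in CD11c- replicates 1 to 4, and the groups overlapped (log2 fold change -0.08, SE 0.08). The exchange factors were Dock2, a Rac activator that lymphocytes need for migration (479 CPM ± 87.7 and 575 ± 77.2, log2 fold change -0.26), Dock8, a Cdc42 activator whose loss causes an immunodeficiency (199 ± 49.5 and 211 ± 34.6, -0.09), and Vav1, which acts below the T cell receptor (296 ± 34.3 and 284 ± 33.2, 0.06). The kinases that turn RhoA activity into contraction were Rock1, at 71.6 ± 21.9 and 58.1 ± 22.9 CPM, and Rock2, at 20.2 ± 9.09 and 11.04 ± 4.38 CPM. The log2 fold change of Rock2, 0.87, had an SE of 0.43 and an interval from -0.06 to 1.79.

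The largest difference relative to its error among the members was that of Gas7, which encodes a membrane-bending F-BAR protein that binds actin filaments and is best known from neurons. Gas7 was at 266.5, 176.9, 210.8 and 228.7 CPM in CD11c+ replicates 1 to 4 and at 370.1, 312.3, 366.1 and 366.8 CPM in CD11c- replicates 1 to 4. The groups did not overlap, and each of the 4 CD11c- libraries lay above each of the 4 CD11c+ libraries. Its mean was 221 CPM ± 37.3 in CD11c+ and 354 ± 27.7 in CD11c- cells, 1.60-fold lower in CD11c+ cells (log2 fold change -0.68, SE 0.13, unadjusted p = 0.000243, adjusted p = 0.153 by edgeR). DESeq2 gave an adjusted p of 0.00152 and limma voom with quality weights 0.0416, both past the threshold, and the other 15 alternatives kept it above 0.05 (at most 0.654). The log2 fold change ran from -0.785 to -0.597 over all 17 alternatives. None of its 50-base stretches occurred in a gene elsewhere. In bulk RNA, fewer cells with the transcript and less of it per cell cannot be told apart.

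**Figure D5:**
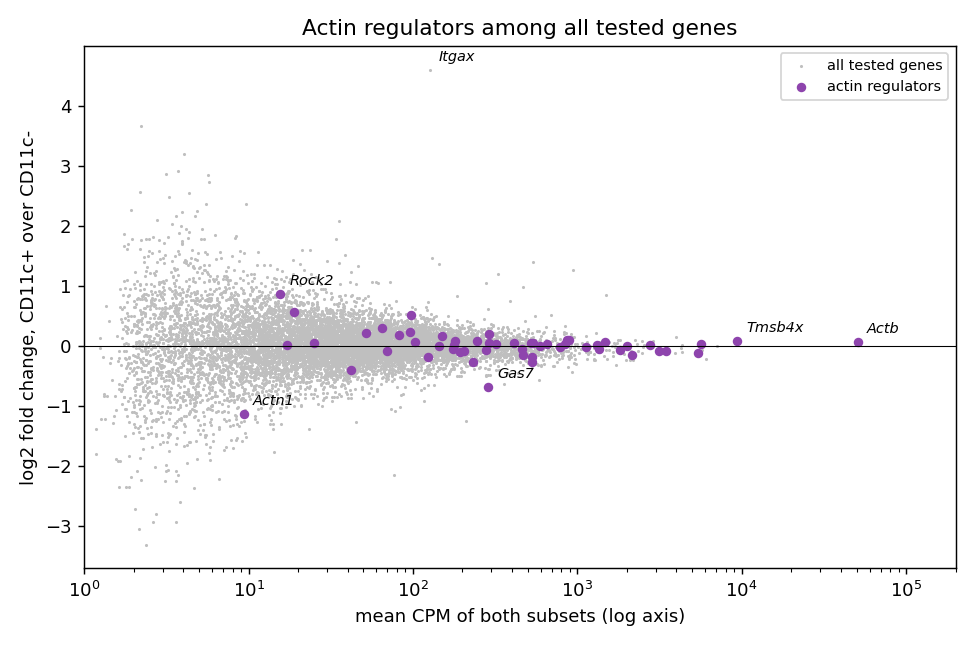
Mean CPM of both subsets (log axis) against the log2 fold change of CD11c+ over CD11c- cells for all 10073 tested genes (grey) and the 55 actin regulators (purple). Most actin regulators lie near 0, with a wider scatter at low levels. Gas7 lies at -0.68 and, at low levels, Rock2 at 0.87 and Actn1 at -1.14, while Itgax lies at 4.60.

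A further list of 101 actin regulators, of which 93 had a row and 81 were tested, gave a similar account. By edgeR 0 passed over all tested genes, and 5 (6.17%, background 4.7%) had an unadjusted p under 0.05, 3 higher and 2 lower. The log2 fold changes were positive for 40 and negative for 41, with a median of -0.01. Iqgap2, a scaffold of Rac and Cdc42, was 1.78-fold higher in CD11c+ cells (68.3 CPM ± 11.8 against 38.4 ± 6.07, adjusted p = 0.494 by edgeR), and Abi3, an adaptor subunit of the WAVE complex, 2.19-fold (36.4 ± 15.1 against 16.7 ± 2.23, adjusted p = 0.762 by edgeR). Neither gene overlapped between subsets. In all, the groups did not overlap for 3 of these regulators on the higher side (background 1.6%) and 3 on the lower side (background 1.85%). That is 7.41% of those tested, against 3.44% of all tested genes, and Rhoc was among the lower ones. Slk, a kinase that switches on ezrin, radixin and moesin, was at 35.4 ± 14.3 and 15.9 ± 8.83 CPM and Arhgef2, an activator of RhoA, at 207 ± 74.8 and 162 ± 12.9. On the lower side stood Prex1, a Rac activator (637 ± 43.5 and 799 ± 119 CPM), Rhoc, a near relative of Rhoa (29.5 ± 3.87 and 42.2 ± 3.98), Ssh1, the phosphatase that switches on cofilin (24.0 ± 6.34 and 34.8 ± 7.96), and Tmod3, which caps the slow-growing end (189 ± 27.2 and 226 ± 22.6), all with adjusted p from 0.990 to 0.991 by edgeR.

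Actin genes are also abundant in myeloid, endothelial and stromal cells, so marker genes of other liver cells were read beside them. The summed level of 10 monocyte and Kupffer cell markers was 29.5 to 301 CPM in CD11c+ and 36.6 to 151 in CD11c- libraries, and that of 5 neutrophil markers 2.27 to 288 and 7.56 to 116. Both were highest in CD11c+ replicate 3, as were the summed CD8 T cell markers (5842 CPM in that library) and dendritic cell markers. Wipf1, Tmsb4x and Rock1 were also highest in that library, as were other members, among them Arpc1b, Arpc2, Arpc3 and Rdx. Msn, Tln1, Flna, Ezr and Dock2 were lowest of the 8 libraries there. The part of other cells in those values was not tested. The 6 dendritic cell markers summed to 4.37 to 13.5 CPM in CD11c+ and 0 to 4.40 in CD11c- libraries, the lowest p of the lists (exact permutation test, two-sided p = 0.0571, adjusted 0.629 over 11 lists, where the smallest p possible is 0.0286). Endothelial markers summed to 17.8 to 28.1 and 24.7 to 38.1 CPM, stellate and smooth muscle markers to at most 6.40 CPM, and platelet markers to at most 2.67 CPM in any library, with Lyve1, Lrat and Gp1bb at 0 throughout, as were Klra4, Klra8, Hbb-b1, Hbb-b2, Hba-a1 and Hba-a2. B cell markers reached 14.4 CPM, NK and ILC1 markers 8.99, hepatocyte markers 5.94 and erythroid markers 3.01 CPM in the highest library. The erythroid sum came from Alas2 alone. Shared sequence was not searched for the markers, and alignments at several places were not counted, so a level of 0 need not mean absence.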

How the data were processed

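Sorted-cell RNA was made into libraries by SMART-seq2 with changed preamplification and cleanup, sequenced from one end over 50 bases, per the labels' protocols. The submitters' processing notes name bcl2fastq, TopHat2 2.0.8b, HTSeq and build mm9. Annotation and strand setting: not given in the sources used here. Each deposited table holds the authors' raw counts for gene symbols. Rows naming no gene were left out of library sizes and tests. Reads in no gene were 63.1% to 67.1% of uniquely placed reads, and alignments at several places 50.3% to 53.6% of all rows.

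The main test was edgeR 4.0.16 under R 4.3.3: filterByExpr, TMM scaling, then the quasi-likelihood test of CD11c+ minus CD11c-, with p-values adjusted by Benjamini-Hochberg across every tested gene and a threshold of 0.05. SE is the size of the log2 fold change over the root of F. CPM use TMM-scaled library sizes. Shared sequence was searched with bwa 0.7.19. The fit was tested on simulated data. The alternatives comprised scaling by RLE factors or by library size alone, 2 other filters, a block for replicate number, leaving out each library, edgeR's legacy=FALSE setting, DESeq2 1.42.0 and voom from limma 3.58.1. A fit without 3 libraries was added after seeing the data. By the rule for named genes, members with an unadjusted p under 0.05 and the 8 with most reads are given per library, and of the other actin regulators the 4 per direction with the lowest unadjusted p at 10 CPM or more are named. Further members were given per library after their values were seen. Members and lists were chosen with earlier results of these data known. Of the 5 genes past the threshold Itgax is given, and the other 4 are not reported here.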

Additional observations from a re-analysis of the deposited data

Results flagged for a closer look

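In 126 sets of 4 libraries (the 55 members and 8 summed levels or scores in each subset), 12 had 1 library standing apart from the other 3 by Dixon's ratio. Chance flags about 1 set in 20 where sets are independent. These were not: the summed levels hold the members, and Actb entered both as CPM and as a share of gene reads. The count of 12 can therefore not be set against that rate. CD11c- replicate 4 stood above the others of its subset for Actb (55025 CPM against 47852 to 48060, and 5.38% of gene reads against 4.80% to 4.84%), Actg1 (79.3 CPM against 67.8 to 69.0), Arpc4 (554 against 511 to 516), Cap1 (192 against 167 to 171) and Rac1 (519 against 39.9 to 103). Wipf1 was high in replicate 3 of both subsets, at 200.4 CPM against 79.8 to 90.9 in CD11c+ and 99.7 against 73.0 to 76.1 in CD11c- libraries. Rock1 was high in CD11c+ replicate 3 (104 against 57.3 to 64.4). CD11c- replicate 1 was high for Tmsb4x (10643 against 8502 to 8793) and Dock8 (263 against 191 to 196), and CD11c- replicate 2 low for Gas7 (312 against 366 to 370).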

How the results depend on the processing

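The count of genes past the threshold, 5, was 12 with no filter, 8 with at least 5 CPM in 4 libraries, 11 with legacy=FALSE, 36 with DESeq2, 19 with limma voom, 11 after leaving out CD11c+ replicates 1 and 2 and CD11c- replicate 1, in which the fewest genes were detected, and 1 to 5 without 1 library. Members past it were 0 by edgeR and 1 each by DESeq2 and limma voom. Members with an unadjusted p under 0.05 were 0 higher and 2 lower. The higher count was 1 with DESeq2, 4 without the 3 libraries (7.27%, against 3.37% of all genes in that fit) and 0 to 4 without 1 library, and the lower count 6 with limma voom (10.9%, against 2.87% of all genes) and 1 to 4 without 1 library. The further actin regulators at that level were 5 (6.17%, against 4.7% of all tested genes). Without the 3 libraries they were 9, in a fit where 6.42% of all tested genes were at that level. The median over members, the summed Arp2/3, formin and myosin ratios and 917 values of single members under the alternatives moved by less than their spread or error, 16 by more, and 2, both Gas7, passed the threshold. Values near 0 still changed sign: up to 13 of 55 members did under an alternative, 13 without the 3 libraries, 9 without CD11c+ replicate 2 and 7 without CD11c- replicate 1 or CD11c- replicate 3.

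Libraries share replicate numbers, which the labels do not tie to mice. The correlation of same-numbered libraries' deviations was 0.0964, 0.167, 0.119 and 0.19 for numbers 1 to 4, and each library correlated best with its own number, a hint from the data and not from the design. With a replicate block 13 genes passed, 0 of them members. In that fit 6 members (10.9%, against 6.07% of all genes) had an unadjusted p under 0.05, Actb, Wipf1 and Rock2 on the higher side, 3 in all, and Gas7, Rhoh and Dock2 on the lower, and 9 further actin regulators did on either side. In that fit the replicate-number term, tested after seeing the data, passed for 3 of 10073 genes by edgeR, Rac1 (adjusted p = 0.0126), Dusp2 and Lamp1, the last 2 named after their values were seen. The cause was not tested. Rock2, Actn1, Vcl and Fmnl3 were each under 20 CPM on average and had wide intervals.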
